A study of Homo sapiens with 4 samples.

Results

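The nuclear genes of oxidative phosphorylation (OXPHOS), the respiratory chain and ATP synthase of mitochondria, were examined for chromatin accessibility in A375 cells. The genes were the RefSeq GRCh38 protein-coding genes whose symbol begins with NDUFA, NDUFB, NDUFC, NDUFS, NDUFV, UQCR or ATP5, together with SDHA, SDHB, SDHC and SDHD. This gave 79 of 20052 protein-coding genes, spread over 22 chromosomes. A region of open chromatin was counted to a gene when it overlapped the gene's span extended by 2 kb on both sides, and 147 of the 125986 regions in the authors' deposited table did so. The rule uses gene symbols and no measured value.

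A375 is an established human melanoma cell line. Cells grown in DMEM with serum received either octanoate at 1 mM or its vehicle, isopropanol, for 48 h, and 2 ATAC-seq libraries were made from each group. Octanoate is a fatty acid of medium chain length, and a single cell line was used. ATAC-seq uses the transposase Tn5 to cut and tag accessible DNA. The labels do not say whether the libraries came from separate cultures, so the deposited p-values measure the spread between these libraries, which may be technical. The deposited table gives 1 mean, 1 fold change and its standard error per region and no value per library, so values of single libraries cannot be shown and the depth behind each value is unknown.

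Oxidative phosphorylation uses 5 complexes of the inner mitochondrial membrane. Complexes I and II pass electrons from NADH and succinate to ubiquinone, complex III passes them on to cytochrome c, complex IV passes them to oxygen, and complex V, the ATP synthase, makes ATP from the proton gradient that complexes I, III and IV build. Oxidation of fatty acids delivers electrons to this chain. Most subunits are encoded in the nucleus, are needed in nearly every cell type, and are known for promoters bound by NRF1, ETS factors such as GABPA, and YY1. The rest are encoded by the mitochondrial genome.

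Of the 79 genes, 77 had at least 1 listed region. The exceptions were UQCRHL, an intronless relative of UQCRH, and ATP5MGL, a relative of ATP5MG. A single region was listed for 50 genes, and NDUFAF6 had the most, 16. The RefSeq promoter table held an annotated start for 64 of the genes, and each of these 64 had an open region that covered at least 1 of its listed starts. The start farthest upstream was itself covered in 62 of the 64 (96.9%), NDUFA5 and NDUFAF3 being the others. Over the 11874 protein-coding genes with a region within 1 kb of a listed start, this share was 89.4%. Over all 15842 protein-coding genes with a start in the promoter table, 11173 had a region that covered a listed start, and 75% had one within 1 kb. Start sites were not used for some genes, among them ATP5F1B, ATP5F1D, ATP5MC3, ATP5MF, ATP5MF-PTCD1, ATP5MGL, NDUFAF6, NDUFB5, NDUFB9, NDUFC2, NDUFS5, SDHC, UQCRB and UQCRHL.

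The sequence before the start is shown for 4 promoters that mark the ends of the range among genes with a listed start. SDHB and NDUFS6 had the start regions with the smallest p after octanoate. NDUFS3 had the tested start region with the lowest fold change, and ATP5F1E the start region with the highest mean signal. Sequences are from RefSeq, build GRCh38.p14, and read 5′ to 3′ in the direction of the gene up to the base before its start. Capitals mark exact matches to any of 8 short motifs, named further on. The NDUFS3 run is shorter because the start of its neighbour KBTBD4 lies 104 bp away, and its rightmost ETS match overlaps the SP1 letters.
SDHB, chr1:17054033-17054182, minus strand: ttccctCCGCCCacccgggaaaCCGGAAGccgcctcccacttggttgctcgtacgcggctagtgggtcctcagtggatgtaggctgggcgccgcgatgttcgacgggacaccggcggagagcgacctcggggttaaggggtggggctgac
NDUFS6, chr5:1801257-1801406, plus strand: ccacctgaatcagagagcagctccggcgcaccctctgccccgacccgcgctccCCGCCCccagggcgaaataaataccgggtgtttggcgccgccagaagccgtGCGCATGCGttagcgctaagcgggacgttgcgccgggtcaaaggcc
NDUFS3, chr11:47578971-47579073, plus strand: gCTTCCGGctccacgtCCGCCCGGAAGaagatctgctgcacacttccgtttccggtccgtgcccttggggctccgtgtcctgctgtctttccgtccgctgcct
ATP5F1E, chr20:59032336-59032485, minus strand: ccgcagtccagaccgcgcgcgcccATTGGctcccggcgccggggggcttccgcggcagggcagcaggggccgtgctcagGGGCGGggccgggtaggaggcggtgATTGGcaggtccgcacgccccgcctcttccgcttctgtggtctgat

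Over 64 OXPHOS promoters of 300 bases, from 250 bases before to 50 after the start farthest upstream, the median GC content was 61.5%, and it was 65% over the 11874 promoters of all genes with an open region at the start. Each motif was searched as an exact match on both strands, and a match is a description of letters, not of binding. The NRF1 letters GCGCATGCG were in 9 of 64 OXPHOS promoters (14.1%) and in 3.52% of all promoters with an open start. The YY1 letters AAGATGG were in 16 OXPHOS promoters (25%) against 6.91%, and the ETS letters CCGGAAG were in 17 (26.6%) against 17.8%. For the ESRRA letters AAGGTCA the shares were 12.5% and 2.53%. SP1 letters (GGGCGG) were in 57.8% against 69.0%, NFY letters (CCAAT) in 34.4% against 36.6%, TATA box letters (TATAAA) in 7.81% against 6.16%, and E-box letters (CACGTG) in 12.5% against 9.77%. At least 1 of the NRF1, ETS and YY1 letters was in 33 of the 64 OXPHOS promoters (51.6%), and in 25.5% of all promoters with an open start. With only the 62 OXPHOS genes and 10621 genes in all whose start farthest upstream was covered, an alternative added after the data were seen, the NRF1 shares were 14.5% and 3.89% and the YY1 shares 25.8% and 7.30%.

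**Figure D1:**
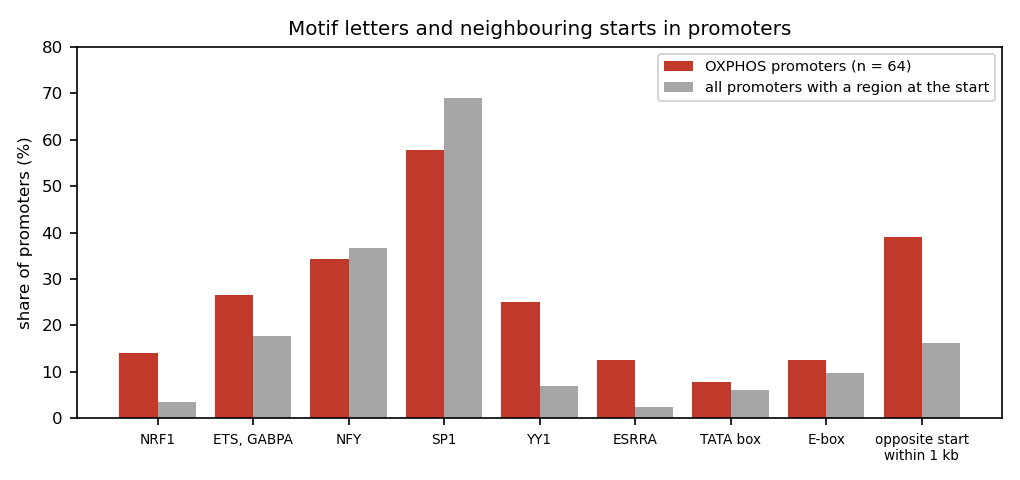
Share of promoters (vertical axis, percent) that hold an exact match to each motif on either strand, or that have the start of another gene on the opposite strand within 1 kb, for 64 OXPHOS genes (red) and all 11874 protein-coding genes with an open region at the start (grey). The OXPHOS bar is the higher one except for SP1 and NFY letters, and the differences were not tested.

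The NRF1 letters had their first base before the start in all 9 genes that held them, from 159 to 3 bases away. In NDUFA8 and NDUFAF5 the match ran across the start. Windows of 6 of the 9 genes are shown because NRF1 is named for its sites in respiratory chain promoters. Each reads 5′ to 3′ along the gene, in the same build. Capitals mark the match, and the letters CGCATGCGC are its reverse strand.
NDUFA8, accessory subunit of complex I, chr9:122159766-122159792, minus strand: ttgccggatGCGCATGCGcaggcgccg
NDUFS6, accessory subunit of complex I, chr5:1801352-1801378, plus strand: agaagccgtGCGCATGCGttagcgcta
NDUFS7, core subunit of complex I, chr19:1383824-1383850, plus strand: tccggtttcCGCATGCGCtccgagccg
SDHD, membrane anchor of complex II, chr11:112086754-112086780, plus strand: gctgtgtttGCGCATGCGcgacgggtg
ATP5F1C, gamma subunit of ATP synthase, chr10:7788146-7788172, plus strand: ggagcttcgGCGCATGCGcgctgaggc
ATP5PF, peripheral stalk subunit of ATP synthase, chr21:25735157-25735183, minus strand: actcaaagaGCGCATGCGtacagagca
The YY1 letters were placed differently. They read AAGATGG in the direction of the gene in 13 of the 16 genes, and in 12 of these their first base lay at positions 11 to 39, counting the start as 1. Over all promoters with an open start, 361 of 564 forward matches lay at or after the start. Windows around the letters are shown for 4 genes of complexes I, II and III, with the match in capitals.
NDUFS4, accessory subunit of complex I, chr5:53560651-53560675, plus strand: gcctgcagcAAGATGGcggcggtgt
NDUFA9, accessory subunit of complex I, chr12:4649115-4649139, plus strand: ttgtgggaaAAGATGGcggctgccg
SDHB, iron-sulfur subunit of complex II, chr1:17054007-17054031, minus strand: tcaggagccAAGATGGcggcggtgg
UQCRC1, core protein of complex III, chr3:48609608-48609632, minus strand: tgcagctggAAGATGGcggcgtccg

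Many OXPHOS genes stood beside another gene. The start of a protein-coding gene on the opposite strand lay within 1 kb for 25 of 64 genes (39.1%), against 16.3% of all genes with an open region at the start. In 23 of the 25 the starts faced away from each other, with 62 to 677 bp between them and a median of 167 bp. Partners included KBTBD4, 104 bp from NDUFS3, and GABPA, which overlaps the start of ATP5PF. In all, 29 of the 65 start regions of OXPHOS genes (44.6%) also lay within 1 kb of another protein-coding start, and the share was 9.83% over all start regions. In the latter a shared region counts once for all its genes, which lowers that share beside a set picked by gene. The 29 include the 2802 bp region of NDUFS6, which also holds the start of MRPL36, a protein of the mitochondrial ribosome. In such a region the accessibility of the pair cannot be told apart. By the authors' deposited table, start regions with an opposite start had a median mean of 73.4 and a median log2 fold change of 0.091, and those without had 51.2 and 0.11. Over tested regions alone the OXPHOS medians were 0.098 over 19 with and 0.19 over 15 without an opposite start, and over tested start regions of all genes they were 0.16 and 0.16.

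The level of accessibility was taken as the normalized read count averaged over all 4 libraries, and as this mean per kb of region when regions were compared. In the authors' deposited table the 65 start regions had a median mean of 64.4, a median width of 1034 bp and 57.9 normalized reads per kb. All 12032 start regions had 60.0, 1136 bp and 49.6 per kb. Per kb, SDHB (118 normalized reads per kb) and UQCRQ (104) stood above NDUFS6 (52.0), whose region is 2802 bp wide. The start region of NDUFS7, a complex I core subunit near the ubiquinone site, was at 26.7 per kb. NDUFS7, and below SDHC, SDHD, UQCR11, ATP5F1D, NDUFA9, NDUFB10 and NDUFA10, were singled out after their values were seen.

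**Figure D2:**
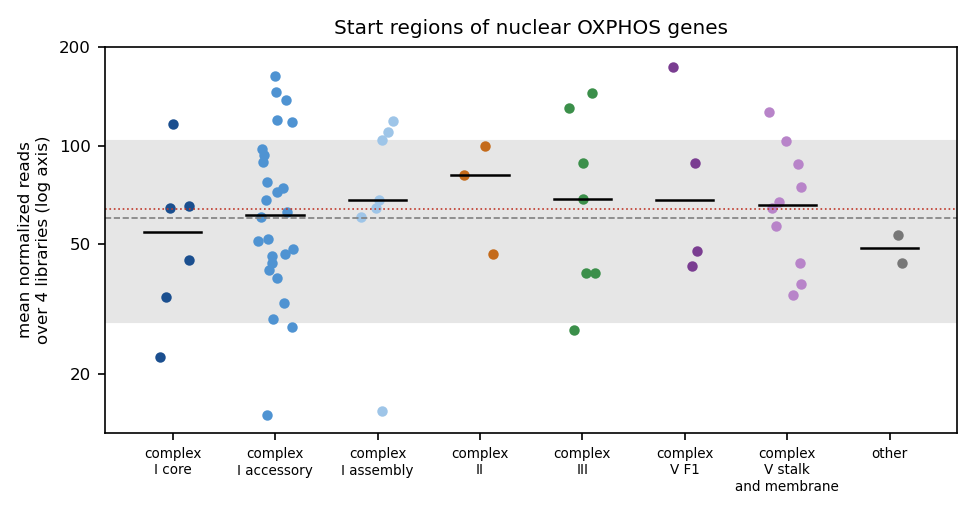
Mean normalized reads over the 4 libraries (vertical log axis) of each start region of a nuclear OXPHOS gene, by role, with a black bar at the group's median. The grey band and dashed line give the quartiles and median (60.0) of all start regions, and the dotted red line the lowest mean that the authors tested, 63.8. The medians of the role groups run from 48.5 to 81.3.

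The main comparison asked whether accessibility at these genes changed with octanoate. No OXPHOS region passed an adjusted p of 0.05, the threshold used here. Fold changes are octanoate over vehicle on the log2 scale, and the authors' adjusted p covers regions whose mean reached 63.8 or more, called tested regions, of which 49 of 11185 belonged to OXPHOS genes. In the authors' deposited table, 0 of these 49 were called, that is, passed an adjusted p of 0.05 from DESeq2 with Benjamini-Hochberg adjustment, where 1.02% of all tested regions did. At an unadjusted p under 0.05, 3 were higher (6.12%) and 0 lower, where 14.8% of all tested regions were higher and 0.107% lower. The smallest adjusted p of an OXPHOS region in the authors' deposited table was 0.261.

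The precision of a single region was limited. The 49 regions had a median standard error of 0.22, at which an unadjusted p of 0.05 corresponds to a log2 difference of 0.42. The 95% Wald intervals, computed from the deposited standard errors, reached from -0.67 at their lowest to 0.94 at their highest, so all 49 ended below a doubling. They included 0 in 46 regions, and in all 49 they included 0.19, the median log2 fold change of all tested regions.

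The shift of all regions above 0 was present at OXPHOS genes too. By the authors' deposited table, 43 of the 49 tested OXPHOS regions had a log2 fold change above 0 (87.8%), and 85.7% of all tested regions did. The median was 0.15 over tested OXPHOS regions and 0.15 over all 147, against 0.19 over all tested regions and 0.23 over all regions. Relative to the tested median, 20 OXPHOS regions lay above and 29 below. After this median was subtracted, 0 of the 49 had an unadjusted p under 0.05 in either direction, where 3.16% of all tested regions were higher and 1.01% lower. A rise or scaling shared by all regions cannot be told apart from a change at these genes by this table.

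**Figure D3:**
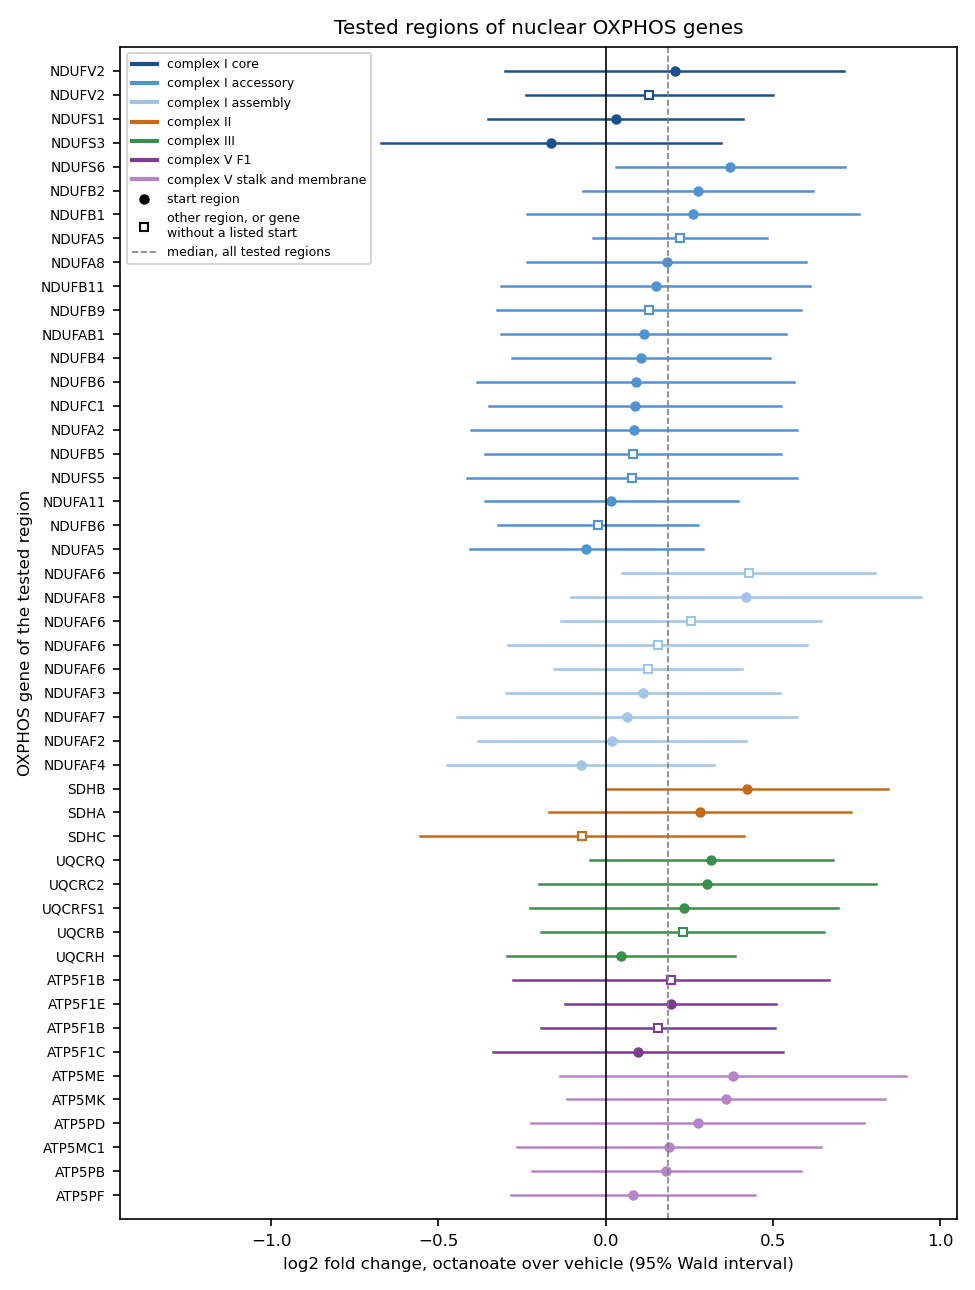
Log2 fold change of octanoate over vehicle (horizontal axis) of 48 of the 49 tested OXPHOS regions with 95% Wald intervals from the deposited standard errors, ordered by role and coloured by complex; filled circles are start regions. Only the intervals of NDUFS6, SDHB and 1 NDUFAF6 region stay above 0, and all intervals drawn include the dashed median of all tested regions, 0.19.

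Since 34 of the 49 tested OXPHOS regions lay at starts, these were set beside start regions of all genes. By the authors' deposited table, the median was 0.11 over 65 OXPHOS start regions and 0.14 over all 12032 start regions, a difference of -0.031. Among tested start regions alone the medians were 0.17 over 34 OXPHOS regions and 0.16 over 5697, and the difference was 0.0048. Both differences were smaller than 0.05, the move counted as none here. Of the 34, 0 had an adjusted p under 0.05 in the authors' deposited table (DESeq2), where 0.298% of tested start regions did. At an unadjusted p under 0.05, 2 of the 34 (5.88%) were higher and 0 lower, where 8.97% of tested start regions were higher and 0% lower.

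**Figure D4:**
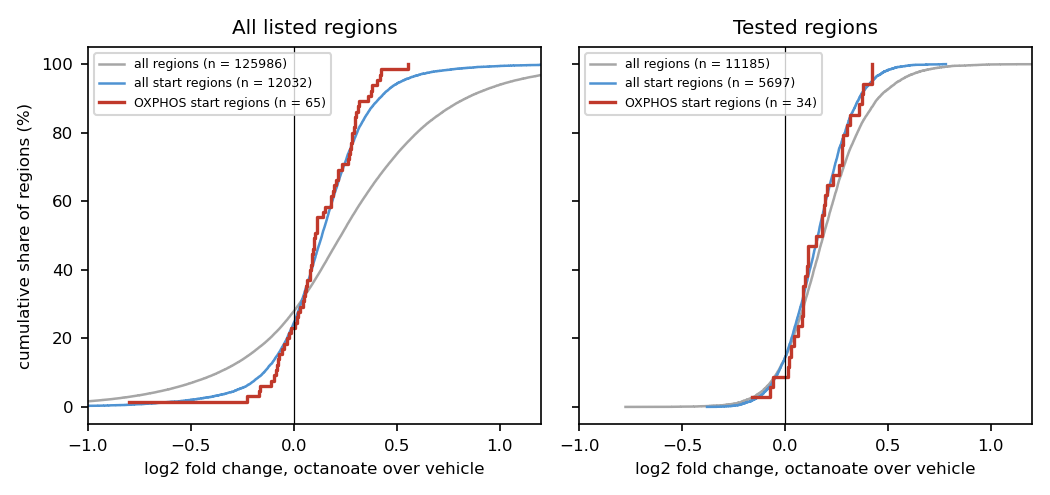
Cumulative share of regions (vertical axis, percent) by log2 fold change of octanoate over vehicle, for all regions (grey), start regions of all protein-coding genes (blue) and OXPHOS start regions (red), over all listed regions (left) and tested regions (right). The red curve runs close to the blue one in both panels, with 65 and 34 OXPHOS regions.

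The 3 regions at an unadjusted p under 0.05 belonged to NDUFS6, SDHB and NDUFAF6, and each failed the adjustment. The start region of NDUFS6 (chr5:1799256-1802057) had a mean of 146 and a log2 fold change of 0.37 with a standard error of 0.17 (unadjusted p 0.0326, adjusted p 0.283) in the authors' deposited table. If the mean weighs the libraries equally, this corresponds to 127 normalized reads in vehicle and 164 in octanoate. SDHB carries the iron-sulfur clusters of succinate dehydrogenase, and its start region (chr1:17053808-17054653) had a mean of 99.9 and a log2 fold change of 0.42, standard error 0.21 (unadjusted p 0.0481, adjusted p 0.331) in the authors' deposited table. The same conversion gives 85.3 normalized reads in vehicle and 114 in octanoate for SDHB. Its promoter above holds ETS letters at -128 and SP1 letters at -144 from the start. NDUFAF6 is an assembly factor of complex I. A region within its span (chr8:95024337-95025490) had a mean of 132 and a log2 fold change of 0.43, standard error 0.19 (unadjusted p 0.0272, adjusted p 0.261) in the authors' deposited table. Relative to the tested median these 3 values were 0.19, 0.24 and 0.24.

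Complex I, which oxidises NADH, was described first by its core subunits, which carry the flavin and the iron-sulfur clusters of its peripheral arm. Of 14 regions of the 7 core genes, 5 were tested and 0 were called, and by the authors' deposited table their log2 fold changes lay between -0.16 and 0.21, median 0.030. NDUFS3 had the lowest, -0.16 (standard error 0.26, adjusted p 0.804), at its start region in the authors' deposited table. NDUFS1, the largest core subunit, was at 0.030 (standard error 0.19) with a mean of 116. NDUFV2, an iron-sulfur subunit beside the NADH site, was at 0.21 (standard error 0.26) at its start in the authors' deposited table. A second tested region counted to it, at 0.13, lay beyond the gene, at the start of ANKRD12. The lowest deposited log2 fold change of all 147 regions was that of the NDUFS7 start region, -0.80 with a standard error of 0.44, a mean of 22.6 and an unadjusted p of 0.0688, which was below the tested signal.

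Accessory subunits of complex I surround the core and are needed for its assembly and stability. Their 30 genes had 46 regions, of which 17 were tested and 0 called. By the authors' deposited table the tested values lay between -0.058 and 0.37, median 0.11, and 4 of 17 lay above the tested median. At starts 3 of 12 did (25%), where 42.9% of tested start regions of all genes lay above it. NDUFB2, a membrane-arm subunit, had the strongest tested start region of the group (mean 163), with a log2 fold change of 0.28 and a standard error of 0.18 (adjusted p 0.46) in the authors' deposited table. NDUFA5, a peripheral-arm subunit, had the lowest value, -0.058 (standard error 0.18), at its start region with a mean of 138. The strongest region counted to NDUFA5 (mean 285, log2 fold change 0.22, adjusted p 0.429 in the authors' deposited table) lay outside the gene, at the start of its neighbour IQUB.

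Assembly factors of complex I help to build the complex and are not part of it. The 8 NDUFAF genes had 33 regions, 9 of them tested and 0 called. NDUFAF8 had the highest tested start value, 0.42 with a standard error of 0.27 (adjusted p 0.459), in the authors' deposited table, and NDUFAF4 the lowest, -0.074 with a standard error of 0.20 and a mean of 118. NDUFAF6 held 16 of the 33 regions. By the authors' deposited table, 14 of these 16 had a log2 fold change above 0, with a median of 0.22 and a range from -0.33 to 1.02, and 4 were tested. Over all listed regions 72.1% were above 0 and the median was 0.23. The strongest of the 4 (chr8:94894343-94897204, mean 229), which also lay within 2 kb of CCNE2, was at 0.13, and another lay near TP53INP1. These regions share 1 gene and are not independent of each other.

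Complex II, or succinate dehydrogenase, feeds electrons from the citric acid cycle into the chain and has no subunit encoded by the mitochondrial genome. Its 4 genes had 10 regions, 9 with a log2 fold change above 0 (72.1% over all listed regions) and 3 tested, with 0 called, in the authors' deposited table. SDHA, the flavin subunit, was at 0.28 with a standard error of 0.23 (adjusted p 0.588) at a start region shared with CCDC127 in the authors' deposited table. SDHC, a membrane anchor, was at -0.070 with a standard error of 0.25 at its strongest region (interval -0.55 to 0.41) and at 0.18 and 0.15 at the other two. SDHD, the other anchor, had a start region that was not tested, with a mean of 46.5 and a log2 fold change of 0.21 by the authors' deposited table.

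Complex III passes electrons from ubiquinol to cytochrome c. The 8 genes had 11 regions, 5 tested and 0 called, and by the authors' deposited table the tested values lay between 0.046 and 0.32, median 0.23. UQCRQ, a small subunit, was highest at 0.32 with a standard error of 0.19 (adjusted p 0.415), at a start region shared with GDF9. UQCRH, the hinge protein that contacts cytochrome c1, had the strongest start region of the group (mean 145) and the lowest tested value, 0.046 with a standard error of 0.17 in the authors' deposited table. The intervals of these regions overlapped, -0.048 to 0.68 for UQCRQ and -0.30 to 0.39 for UQCRH, and the difference between them was not tested.

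Complex V was divided into the F1 part, taken as the ATP5F1 genes, and the remaining stalk and membrane subunits, the ATP5P and ATP5M genes. The 5 F1 genes had 11 regions, 4 tested and 0 called, with values from 0.098 to 0.19 in the authors' deposited table. ATP5F1E, the epsilon subunit, had the strongest start region of the OXPHOS genes with a listed start (mean 174). Its log2 fold change was 0.19 with a standard error of 0.16 (adjusted p 0.596). ATP5F1C was lowest at 0.098 with a standard error of 0.22 in the authors' deposited table. The 12 stalk and membrane genes had 13 regions, 6 tested and 0 called, from 0.081 to 0.38. ATP5ME, subunit e, was highest at 0.38 with a standard error of 0.26 (adjusted p 0.508) and ATP5MK, subunit k, was at 0.36 with a standard error of 0.24 (adjusted p 0.491) in the authors' deposited table. ATP5PF, at 0.081 with a standard error of 0.19, was the lowest and had the highest mean of the group, 127. The remaining genes, ATP5IF1, which encodes the inhibitor of ATP synthase, the relatives UQCRHL and ATP5MGL, and the readthrough genes ATP5MF-PTCD1 and NDUFC2-KCTD14, had 11 regions and 0 tested.

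OXPHOS start regions were also described by their distance from the chromosome end. The 12 start regions within 5 Mb of a chromosome end, counted from the outermost listed region or gene, had a median of 0.30 by the authors' deposited table, and the other 53 had 0.097. Over start regions of all genes the medians were 0.20 near ends and 0.13 elsewhere. The 4 tested OXPHOS start regions near ends, at NDUFS6, NDUFAF8, SDHA and ATP5ME, ran from 0.28 to 0.42, and each lay above the tested median of 0.19; of the 30 tested ones elsewhere, 11 did (36.7%). Over tested start regions of all genes the shares above it were 69.5% near ends and 40.3% elsewhere. Of the 12 near ends, 4 lay below the median elsewhere: NDUFS7 at -0.80 and UQCR11, a small subunit of complex III, at -0.17, both on the short-arm end of chromosome 19, and the accessory subunits of complex I NDUFB10 at 0.048 and NDUFA9 at 0.078. None of these was tested by the authors. ATP5F1D, on the same end of chromosome 19 but without a start used here, had regions at -0.28, 0.15 and 0.33 in the authors' deposited table. Whether position takes part in the fold change was not tested.

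**Figure D5:**
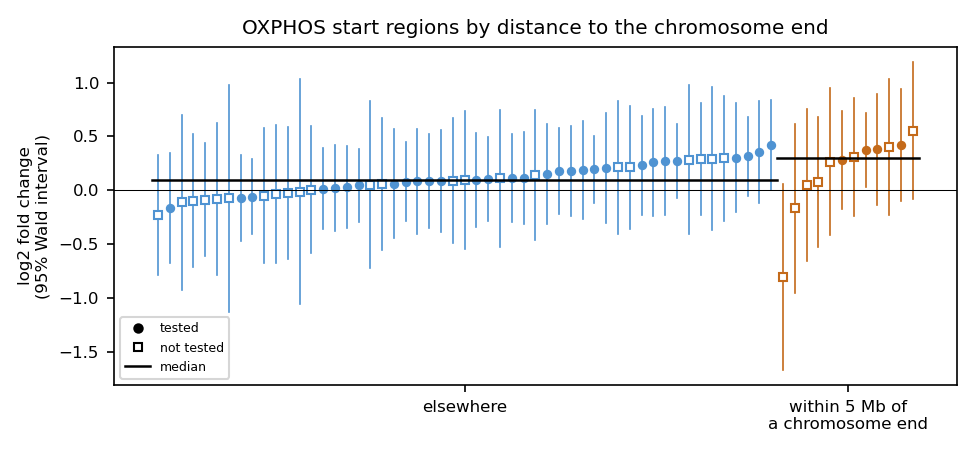
Log2 fold change of octanoate over vehicle (vertical axis) with 95% Wald intervals for each OXPHOS start region, sorted within 53 regions elsewhere (blue) and 12 within 5 Mb of a chromosome end (orange); filled circles were tested and black bars are medians, 0.097 and 0.30. The lowest point is the NDUFS7 start region at -0.80.

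The 98 OXPHOS regions below the tested signal were weaker and more scattered. In the authors' deposited table, 1 of them was higher at an unadjusted p under 0.05 and 0 were lower, where 2.48% of all such regions were higher and 0.186% lower. It lay within NDUFA10, an accessory subunit of complex I (chr2:239927270-239927984), with a mean of 39.4, a log2 fold change of 0.76, a standard error of 0.34 and an unadjusted p of 0.0248. The start region of NDUFA10 was at 0.56 with a standard error of 0.32 in the authors' deposited table, and the third region of the gene was at 0.75 with a standard error of 0.76. Among OXPHOS genes with a listed start, 35 regions lay within the gene and away from any start, with a median log2 fold change of 0.23 and a median mean of 14.8. All 74 OXPHOS regions away from any listed start, genes without one included, had 0.19 and 16.2.

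Motif letters were also set beside the fold changes. The letters were those of the start farthest upstream, and the strongest start region can lie at another listed start, as at NDUFA5. Among all 11874 genes with an open start, 1253 had no region covering the start farthest upstream. OXPHOS genes with ETS letters in the promoter had a median log2 fold change of 0.21 at their strongest start region, and those without had 0.098, computed from the authors' deposited table. Over all genes with an open start the medians were 0.14 with and 0.14 without these letters. For NRF1 letters the OXPHOS medians were 0.11 with and 0.11 without, and for YY1 letters 0.10 and 0.11. They were 0.15 and 0.091 for SP1 letters, 0.16 and 0.10 for ESRRA letters, 0.13 and 0.10 for NFY letters, 0.081 and 0.11 for TATA box letters, and 0.036 and 0.11 for E-box letters. These are descriptions with no test, over 5 to 37 genes with letters.

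The other nuclear genes of the pathway gave the same count of calls. Of 17 genes of complex IV and cytochrome c, 14 had a region, and 0 of 6 tested regions had an adjusted or unadjusted p under 0.05 in the authors' deposited table. Of the 6, 3 lay below 0 and 3 above (50%), where 85.7% of all tested regions lay above. Their median log2 fold change was -0.0024, against 0.19 over all tested regions. With regions below the tested signal included, 12 of 17 lay above 0 (70.6%), with a median of 0.19. Over all listed regions the values were 72.1% and 0.23. The smallest p among the 6 tested regions belonged to COX7A2L, which helps to join complexes III and IV into supercomplexes. It was at 0.29 with a standard error of 0.19 (adjusted p 0.465), and the other tested region of COX7A2L was at -0.19 with a standard error of 0.24. Assembly factors of complexes I to V outside the NDUFAF family, 32 genes, had 17 tested regions, again with 0 at either threshold. Among these TMEM126B, an assembly factor of complex I, had the smallest p, with a value of 0.25 and a standard error of 0.14 (adjusted p 0.375) in the authors' deposited table. The 15 regulators of mitochondrial biogenesis and mitochondrial DNA had 24 tested regions, 0 of them with an adjusted p under 0.05, and 3 (12.5%) higher and 1 lower at an unadjusted p under 0.05. Over all tested regions these shares were 1.02% called, 14.8% higher and 0.107% lower. TFB2M, a transcription factor of the mitochondrial genome, had the smallest p there, with a log2 fold change of 0.35 and a standard error of 0.13 (adjusted p 0.141) in the authors' deposited table. The other 3 lay at ESRRG, an estrogen-related receptor, at -0.53, 0.43 and 0.34.

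The mitochondrial genome, which encodes the remaining subunits and is not packed in nucleosomes, was listed as 1 region from 1 to 16569. Its mean was 531681 normalized reads, and its log2 fold change was 0.10 with a standard error of 0.082 (adjusted p 0.584) in the authors' deposited table. A larger number of mitochondrial genomes and a greater recovery of them cannot be told apart in this assay.

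Markers of the labelled cell type were looked at by open regions within 1 kb of the start. In the authors' deposited table the strongest such region had a mean of 168 at MITF, the regulator of the pigment cell lineage, 30.0 at DCT and 61.7 at AXL. The pigment genes MLANA, TYR and TYRP1 had none, nor did the blood cell genes PTPRC and CD14 or the keratinocyte gene KRT5. KRT8 (mean 77.5) and PDGFRB (40.7) had 1 each. SOX10, PMEL, SOX9, CD3E, EPCAM, CDH1, PECAM1, CDH5, COL1A1, DCN and KRT14 were not analysed here.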

How the data were processed

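The 4 ATAC-seq libraries were grouped by their titles. The submitters' processing notes name Trim Galore, cutadapt, FastQC, Bowtie2, Picard, MACS2, featureCounts, DESeq2, bedtools 2.29.1 and hg38, without roles. Whether reads were shifted for the Tn5 cut is not given in the sources used here. Per the file headers, the authors deposited a signal (mean normalized count over all libraries, scaling not given), a log2 fold change with its standard error, a Wald score, a p-value and an adjusted p-value. The adjusted p-value equalled Benjamini-Hochberg adjustment over 11185 regions, and the deposited 1 elsewhere was read as not tested. The table has 0 columns per library, so depths are unknown; the labels give only an average number of reads per sample.

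Python 3.11.15, pandas 2.3.3, numpy 2.4.6 and SciPy 1.17.1 computed overlaps, medians, 95% Wald intervals (log2 fold change and standard error, normal quantile) and centred p-values, tested on simulated data. Gene spans came from RefSeq GRCh38.p14 and starts from its promoter table, and motifs were searched in 1 promoter per gene, that of the start farthest upstream. Start regions lie within 1 kb of a start. P-values are those of the authors' DESeq2 fit, or were recomputed from its fold changes and standard errors after the tested median was subtracted. Exons, introns and UTRs were not used. Some single-gene values are not reported here, 1 tested region of the interval plot included; counts and medians cover all genes. Named genes were, per role, the tested start regions with the highest mean and the highest and lowest fold change, the genes of the 10 smallest p, and genes without regions. The genes, lists and motifs were chosen with earlier results of these data known. Alternatives covered thresholds, adjustment, centring, window sizes, filters and subsets of genes.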

Additional observations from a re-analysis of the deposited data

How the results depend on the processing

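The count of 0 OXPHOS regions past the deposited adjusted p (DESeq2) was 0 in each of the 6 alternatives: an adjusted p of 0.01 or 0.1, adjustment over all regions, centring on the tested median, and gene spans extended by 0 or 10 kb. The count at an unadjusted p under 0.05, 3 as reported, became 0 after centring, which by construction removes the shared shift, and 5 with spans extended by 10 kb, which takes in 59 tested regions. The median log2 fold change of OXPHOS regions, 0.15, stayed between 0.11 and 0.19 in 7 alternatives and became -0.084 when the median of all regions was subtracted. The start median, 0.11, became 0.17 in tested regions, and its difference from all start regions, -0.031, became 0.0048; the cause was not tested. A move under 0.05 on the log2 scale was counted as none. No paired analysis was possible because values are deposited only as summaries of all libraries, and for the same reason leaving out a replicate was not run. The authors' filter leaves 98 of 147 OXPHOS regions without an adjusted p.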

Other observations

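OXPHOS genes have many pseudogene copies, and reads from near-identical copies can be assigned to either. Of 155 OXPHOS pseudogenes in RefSeq, 11 (7.10%) overlapped a listed region, against 9.51% of all 16882 pseudogenes. Their 17 regions had a median of 0.17 by the authors' deposited table (log2 fold change), where the 2210 regions of all pseudogenes had 0.25, and 2 were tested. At SDHCP3 (chr2:23944423-23945219) the log2 fold change was 0.68 with a standard error of 0.26, a mean of 65.4, an unadjusted p of 0.0102 and an adjusted p of 0.169 (DESeq2). SDHCP3 was chosen after its values were seen. The tested region at NDUFAF4P1 was at 0.17 with a standard error of 0.21. The strongest region at a copy of SDHA, at SDHAP1, had a mean of 45.9 and was not tested.

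The gene long known as NDUFA4 is named COXFA4 in RefSeq and encodes a complex IV subunit, so it fell outside the rule by symbol. Its region had a mean of 208, above the highest mean of the OXPHOS start regions, 174. The log2 fold change was 0.18 with a standard error of 0.15 (DESeq2, adjusted p 0.596) in the authors' deposited table. This fold change lay within the range of the OXPHOS start regions. COXFA4L2, its relative, was at -0.12 with a mean of 63.6, just under the lowest tested mean of 63.8.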
